A study of Rattus norvegicus with 6 samples.

Results

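The interleukin-1 (IL-1) family and its receptors were followed in L5 dorsal root ganglia (DRG), the fifth lumbar ganglia that hold the cell bodies of sensory neurons, after the L5 spinal nerve was cut. The genes were listed by family membership, with earlier results of these data known: the ligands Il1a, Il1b, Il18 and Il33, the receptor antagonist Il1rn, the decoy receptor Il1r2, the signalling receptors Il1r1, Il18r1 and Il1rl1, and the co-receptor Il1rap. Each of the 10 had a transcript cluster annotated to that gene alone, out of 13215 genes with such a cluster. A transcript cluster is the set of array probes that lie over the exons of a gene. The groups were ganglia of male Wistar rats 7 days after L5 spinal nerve transection (SNT), a model of neuropathic pain, and ganglia of naive male Wistar rats that had no operation. There were 3 arrays per group, each with RNA pooled from 4 animals, so 12 animals stood behind a group and differences between single animals are not seen. No sham-operated group was included, so effects of the surgery and of the cut nerve cannot be told apart. The sources used here give no ages for the rats.

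IL-1α and IL-1β are inflammatory cytokines that bind the same receptor, IL1R1, which then recruits IL1RAP and signals through MYD88 and IRAK kinases to NF-κB. The product of Il1rn occupies that receptor without signalling, and IL1R2 binds the cytokine but has no signalling domain. IL-18 signals through IL18R1 and its co-receptor IL18RAP, and IL-33, a nuclear protein released from damaged cells, signals through IL1RL1 (also called ST2) and IL1RAP. IL-1β and IL-18 are made as precursors that caspase-1 cuts to the active form. In sensory ganglia IL-1β is known to make nociceptive neurons more excitable.

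The arrays gave log2 normalised probe intensities for 19418 clusters. Array medians were 6.11, 6.16 and 6.16 on naive arrays and 6.31, 6.21 and 6.18 on SNT arrays. Every SNT median was thus above every naive median. Pairs of naive arrays had correlations of 0.994 to 0.996 over the clusters. SNT replicate 1 stood apart: its correlations were 0.982 with the other SNT arrays and 0.978 to 0.981 with the naive arrays, against 0.99 between SNT replicates 2 and 3. Atf3, which neurons switch on after axon injury, lay between 7.69 and 7.74 on naive arrays and between 11.4 and 11.6 on SNT arrays, as the labels imply. Scn10a, a sodium channel of nociceptors that marks the ganglion, stood at 10.1, 10.2 and 9.85 on naive arrays and at 9.03, 6.45 and 6.36 on SNT arrays, in replicate order.

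Expression of 9 of the 10 genes rose after SNT and expression of none fell, at a false discovery rate (FDR) of 0.1 in limma with Benjamini-Hochberg adjustment over all clusters. The exception, Il33, was not called. Of all clusters, 32.1% were called in either direction, 17.3% rose and 14.8% fell, and of the 13215 genes 38.2% were called, 19.9% rose and 18.3% fell. In 9 genes all SNT values lay above all naive values, and groups that did not overlap were found for 44.5% of all clusters and 51.6% of all genes. The median log2 fold change of the 10 genes was 0.65, against 0.07 over the 13215 genes. Among all calls 54.0% were rises, a share that was 35.5% when each array was centred on its own median, and each of the 10 genes kept a positive change under every alternative run. Expression rose over 2-fold in Il1r1 and Il1rap and by less in the other 7. A ganglion holds several cell types, so more RNA of a gene per cell cannot be told apart from more cells of a type that expresses it.

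**Figure D1:**
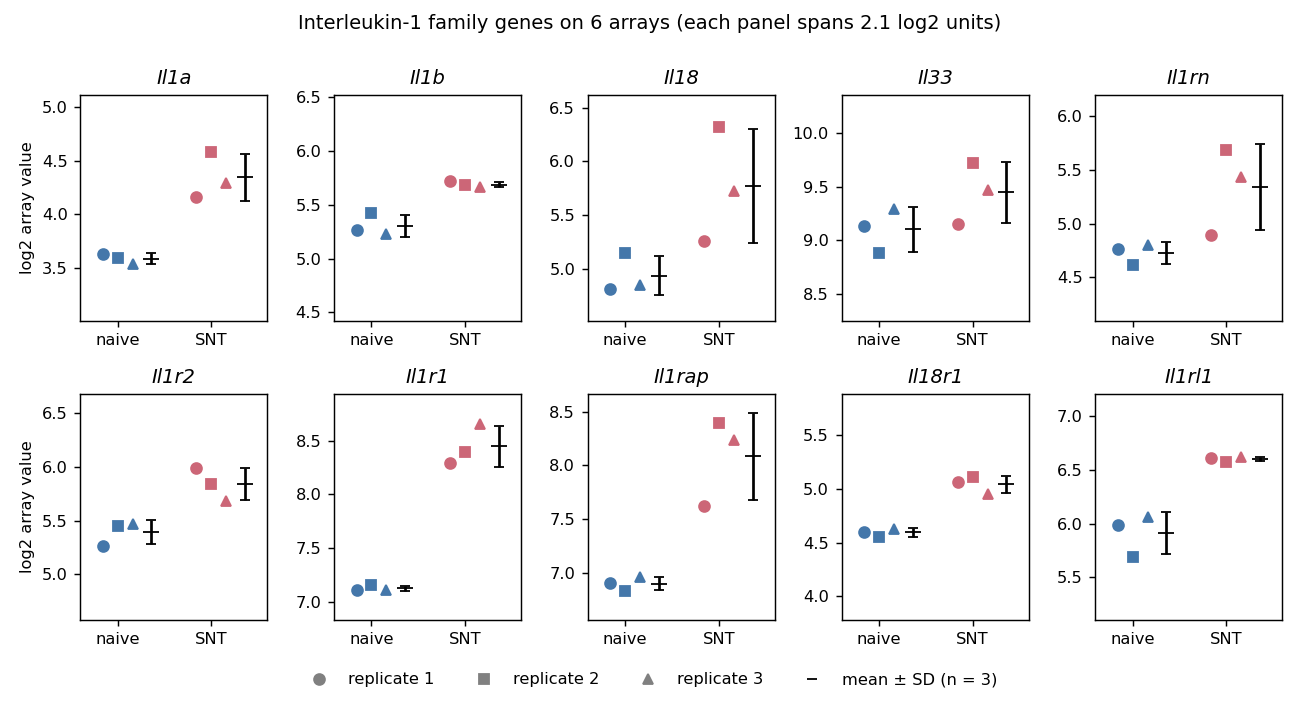
Log2 normalised probe intensity of each gene (vertical axis) on the 3 naive and 3 SNT arrays (horizontal axis), with symbols for replicates and the mean ± SD (n = 3) beside each group. Panels cover the same span of log2 units around different centres, and only in Il33 do SNT and naive values overlap.

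Among the receptors, Il1r1, the signalling receptor for both IL-1 cytokines, had the largest change of the 10 genes on these arrays. It stood at 7.11, 7.15 and 7.11 on naive arrays and at 8.29, 8.39 and 8.66 on SNT arrays. Every SNT array was thus more than 1 log2 unit above every naive array. Its log2 fold change was 1.32 ± 0.11 (SE, n = 3 arrays per group), or 2.50-fold, with an adjusted p of 0.00246 in limma. The 95% confidence interval ran from 1.07 to 1.58, and the intervals of 6 of the other genes lay wholly below it. Il1rap, the co-receptor that IL1R1 and IL1RL1 share, had values of 6.90, 6.83 and 6.96 on naive arrays and of 7.63, 8.39 and 8.23 on SNT arrays. Its groups did not overlap, and SNT replicate 1 was the lowest of the SNT arrays. The log2 fold change was 1.18 ± 0.19, or 2.27-fold (limma, adjusted p = 0.00926).

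The promoter windows of these 2 genes are shown because their changes were the largest, and they run from 250 bases before to 50 bases after the transcript start in the RefSeq table for the GRCr8 assembly. The Il1r1 window is chr9:50034133-50034432 on the plus strand and the Il1rap window, the first of 2 in the table, is chr11:87704293-87704592 on the minus strand. Both are written 5′ to 3′ along the gene.
Il1r1: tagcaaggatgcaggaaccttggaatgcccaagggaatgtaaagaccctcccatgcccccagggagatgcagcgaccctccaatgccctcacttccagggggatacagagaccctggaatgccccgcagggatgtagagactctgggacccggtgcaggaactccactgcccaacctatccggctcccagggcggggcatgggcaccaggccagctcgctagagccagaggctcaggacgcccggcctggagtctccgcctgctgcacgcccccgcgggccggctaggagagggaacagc
Il1rap: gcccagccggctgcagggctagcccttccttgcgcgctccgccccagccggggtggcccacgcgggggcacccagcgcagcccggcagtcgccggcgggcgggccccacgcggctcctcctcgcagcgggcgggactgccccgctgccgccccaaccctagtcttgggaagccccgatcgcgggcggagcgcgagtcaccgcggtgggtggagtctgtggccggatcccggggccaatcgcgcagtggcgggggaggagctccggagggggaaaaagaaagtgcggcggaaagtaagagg
The windows were searched on both strands for TGANTCA (AP-1), TTCNNNGAA (STAT) and TTGCNNAA (C/EBP), and on the strand of the gene for the TATA box letters TATAAA. None of these letters occurred in either window, so neither has capitals. GC content was 65.3% in Il1r1 and 75.3% in Il1rap, with 13 and 36 CpG dinucleotides, against medians of 51.7% and 7 over 33469 windows.

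Il1rl1, the receptor for IL-33, and Il18r1, the ligand-binding receptor for IL-18, rose by less and evenly. Il1rl1 stood at 5.99, 5.69 and 6.06 on naive arrays and at 6.61, 6.58 and 6.62 on SNT arrays. The 3 SNT values were nearly equal, and all exceeded the highest naive value. The log2 fold change of Il1rl1 was 0.69 ± 0.11 (limma, adjusted p = 0.00882), a 1.61-fold rise. Il18r1 had values of 4.60, 4.55 and 4.63 on naive arrays and of 5.06, 5.11 and 4.96 on SNT arrays. Its groups were likewise separate, with a log2 fold change of 0.45 ± 0.08 (limma, adjusted p = 0.0108). The Il18r1 window held TTCCCAGAA, a match to the STAT letters, from 125 to 117 bases before the start.

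**Figure D2:**
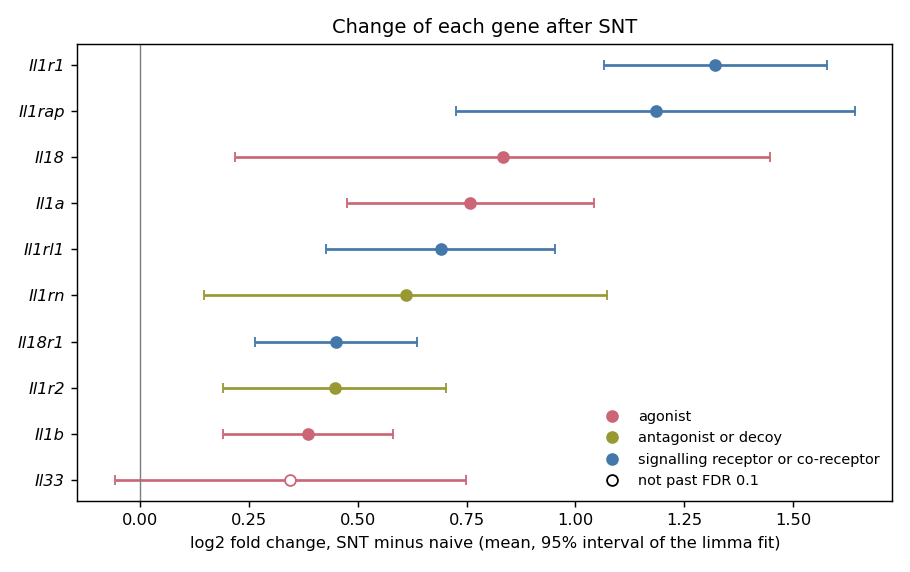
Log2 fold change of each gene, SNT minus naive (horizontal axis), with the mean as a point and the 95% confidence interval of the limma fit as a line, coloured by the role of the protein. The interval of Il33 (open symbol) includes 0, and that of Il1r1 starts at 1.07, above the upper bound of 6 other genes.

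The 2 agonists of IL1R1 both rose, Il1a from low values. Il1a, which encodes a cytokine stored in cells and released on damage, stood at 3.63, 3.60 and 3.53 on naive arrays and at 4.16, 4.58 and 4.29 on SNT arrays. The groups did not overlap, and the log2 fold change of Il1a was 0.76 ± 0.12 (1.69-fold, limma, adjusted p = 0.00848). Its mean over the 6 arrays lay at the 10.5th percentile of all clusters. Control probes were not used here, so a background level for so dim a cluster was not set. By RNA sequencing of the same RNA samples, the study reported a far larger rise of Il1a than on its arrays. Il1b, the cytokine activated by inflammasomes, had values of 5.26, 5.42 and 5.23 on naive arrays and of 5.72, 5.68 and 5.67 on SNT arrays. Its SNT arrays agreed closely, and the change was the smallest of the 9 called genes, 0.39 ± 0.08 on the log2 scale, or 1.31-fold (limma, adjusted p = 0.0189).

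Il1a and Il1b lie next to each other on chromosome 3, and their promoter windows are shown because the 2 neighbours rose together and both hold matches. The Il1a window is chr3:136989968-136990267 and the Il1b window is chr3:137036532-137036831, both on the minus strand (RefSeq, GRCr8). Capitals mark the matches, which are TATAAA followed by TGACTCA in Il1a and TATAAA followed by TTGTGCAA in Il1b.
Il1a: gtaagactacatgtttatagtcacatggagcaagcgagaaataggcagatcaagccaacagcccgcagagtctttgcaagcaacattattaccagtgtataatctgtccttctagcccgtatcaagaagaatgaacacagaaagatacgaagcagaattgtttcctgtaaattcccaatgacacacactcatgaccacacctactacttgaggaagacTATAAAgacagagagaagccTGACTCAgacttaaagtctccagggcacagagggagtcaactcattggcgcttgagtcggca
Il1b: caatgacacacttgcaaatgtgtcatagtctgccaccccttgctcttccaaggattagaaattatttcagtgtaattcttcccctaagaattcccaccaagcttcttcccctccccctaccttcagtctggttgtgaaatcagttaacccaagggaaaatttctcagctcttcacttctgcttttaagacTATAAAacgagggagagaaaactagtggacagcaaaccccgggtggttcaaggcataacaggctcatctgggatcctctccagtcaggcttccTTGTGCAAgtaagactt
In Il1a the TATA letters lay 32 to 27 bases and the AP-1 letters 12 to 6 bases before the start. In Il1b the TATA letters lay 60 to 55 bases before the start and the C/EBP letters, read on the opposite strand, at bases 34 to 41 after it. Across all 33469 windows, 7.33% held the AP-1 letters, 8.87% the STAT letters, 10.6% the C/EBP letters and 8.80% the TATA letters. Windows of all genes but Il1r2 (9 of 10) were searched and numbered 11, since Il33 and Il1rap each had 2. Besides those named, Il18 held the AP-1 letters TGAATCA at bases 6 to 12 after the start, and the second Il33 window held C/EBP and TATA letters.

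Il18, which encodes a cytokine that acts on T and natural killer cells, had the widest spread of the 10 genes. Its values were 4.81, 5.14 and 4.85 on naive arrays and 5.26, 6.32 and 5.73 on SNT arrays. SNT replicate 1 was only slightly above naive replicate 2, whereas SNT replicate 2 was more than 1 unit above it. The log2 fold change of Il18 was 0.83 ± 0.26 (1.78-fold, limma, adjusted p = 0.0599). Without naive replicate 1 the adjusted p was 0.174, without naive replicate 2 it was 0.104, without naive replicate 3 it was 0.155 and without SNT replicate 3 it was 0.111, and the call was also lost under the 3 other scalings, under which the adjusted p was 0.104 to 0.147.

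Il33 was bright on all arrays and was not called. It stood at 9.13, 8.88 and 9.29 on naive arrays and at 9.15, 9.72 and 9.47 on SNT arrays. SNT replicate 1 fell among the naive values, so the groups overlapped. The log2 fold change of Il33 was 0.35 ± 0.17 (limma, adjusted p = 0.191), with an interval from -0.06 to 0.75. Without SNT replicate 1 the change was 0.49 and the adjusted p was 0.0526, past the FDR of 0.1.

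The genes for the 2 proteins that oppose IL-1 also rose. Il1rn, the receptor antagonist, stood at 4.77, 4.61 and 4.80 on naive arrays and at 4.90, 5.68 and 5.43 on SNT arrays. The groups did not overlap, but SNT replicate 1 was only just above the highest naive value. The log2 fold change of Il1rn was 0.61 ± 0.19 (1.53-fold, limma, adjusted p = 0.0652). Its call did not survive the omission of a naive array (adjusted p = 0.129 to 0.181), whichever was left out, and was lost under the 3 other scalings (adjusted p = 0.148 to 0.215). Omitting SNT replicate 2 gave an adjusted p of 0.138 and omitting SNT replicate 3 one of 0.142. Il1r2, the decoy receptor, had values of 5.26, 5.45 and 5.47 on naive arrays and of 5.99, 5.84 and 5.69 on SNT arrays. Unlike Il1rn it was highest on SNT replicate 1. The log2 fold change of Il1r2 was 0.45 ± 0.11 (1.36-fold, limma, adjusted p = 0.0272), and the adjusted p was 0.108 without naive replicate 1.

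Whether an agonist changed relative to its inhibitor, or a ligand relative to its receptor, was asked of 5 pairs by an exact permutation test of the per-array difference of log2 values. With 3 arrays against 3 the smallest p is 0.1, so no pair can pass 0.05. Il1r1 minus its decoy Il1r2 exceeded the naive mean by 0.57, 0.82 and 1.24 on the SNT arrays, while naive arrays lay within 0.12 of it. The mean change of 0.87 had a two-sided exact p of 0.1, adjusted over the 5 pairs to 0.25. Il33 minus Il1rl1 was lower on the SNT arrays by a mean of -0.34 (exact p = 0.1, adjusted 0.25). It was -0.65 on SNT replicate 1, -0.045 on replicate 2 and -0.34 on replicate 3. SNT replicate 2 lay only just below naive replicate 1 (-0.044), so the groups barely separated. The mean change was -0.15 after quantile normalisation and -0.14 after cyclic loess. The other 3 differences overlapped between groups. Il1b minus Il1rn changed by -0.23 (exact p = 0.5), Il1a minus Il1rn by 0.15 (exact p = 0.5) and Il18 minus Il18r1 by 0.38 (exact p = 0.4). Leaving out single arrays gave -0.46 to -0.05, 0.02 to 0.22 and 0.14 to 0.65 for these 3 changes.

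The 10 genes differed in how they were spread over the SNT arrays. In Il1a, Il1rap, Il18, Il33 and Il1rn the order was SNT replicate 2, then 3, then 1. On SNT replicate 1 the excess over the naive mean was 20.6% of the mean excess of replicates 2 and 3 in Il1rn, 29.6% in Il18, 9.91% in Il33 and 51.4% in Il1rap. In Il1rl1, Il18r1 and Il1b it was 102%, 106% and 112%, so these genes rose about as much on each array, and in Il1r2 it was 161%. The SD between SNT arrays ranged from 0.02 in Il1rl1 to 0.53 in Il18. It exceeded the SD between naive arrays, which was 0.03 to 0.21, in 8 of the 10 genes.

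Markers of macrophages had the same order of SNT arrays, replicate 2, then 3, then 1, in 12 of 13 measured genes. The share of all genes with this order was not counted. All 13 markers rose, against 19.9% of all genes. Their median excess over the naive mean was 1.22 on SNT replicate 1, 2.24 on replicate 2 and 1.72 on replicate 3. Their summed linear intensity was 1880 to 2501 on naive arrays and 7223 to 14067 on SNT arrays. Neuronal markers fell in 6 of 8, against 18.3% of all genes. Their median difference from the naive mean was -0.53, -1.28 and -1.06 on SNT replicates 1 to 3. Their summed intensity was 39052 to 40591 on naive arrays and 21674 to 30585 on SNT arrays. For T and natural killer cells 6 of 8 markers rose, against 19.9% of all genes. Their sums were 347 to 380.3 on naive and 931 to 1352 on SNT arrays. Gzmb (log2 fold change 4.06) and Cd8a (2.62) changed most. The other markers had changes of 0.30 to 0.78, and Cd3d and Nkg7 were not called. Of 9 neutrophil markers only Csf3r rose and none fell, and their sums overlapped, at 465 to 1371 and 654 to 1038. The part of these cell types in the changes of the IL-1 family was not tested.

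Of the other markers, 3 of 7 endothelial, 3 of 5 fibroblast, 2 of 6 Schwann cell and 1 of 3 adipocyte genes rose. None of these fell. Of all genes, 19.9% rose and 38.2% were called in either direction. Satellite glia had 1 rise and 2 falls among 4 markers, and mast cells 1 rise and 1 fall among 6. The called share was 33.3% for Schwann cells, adipocytes and mast cells, close to that of all genes called in either direction. For Schwann cells and adipocytes all calls were rises. None of 2 B cell and 3 skeletal muscle markers was called, but single arrays stood apart. The muscle sum was 1112.5 on SNT replicate 3, against 529 and 539 on the other SNT arrays and 604 to 665 on naive arrays. On naive replicate 3 the B cell gene Cd79b stood at 8.20, against 6.57 and 6.63 on the other naive arrays, and the neutrophil genes Ngp and S100a9 were also highest there, at 8.29 and 8.76. The part of these cells in the changes of the 10 genes was not tested.

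**Figure D3:**
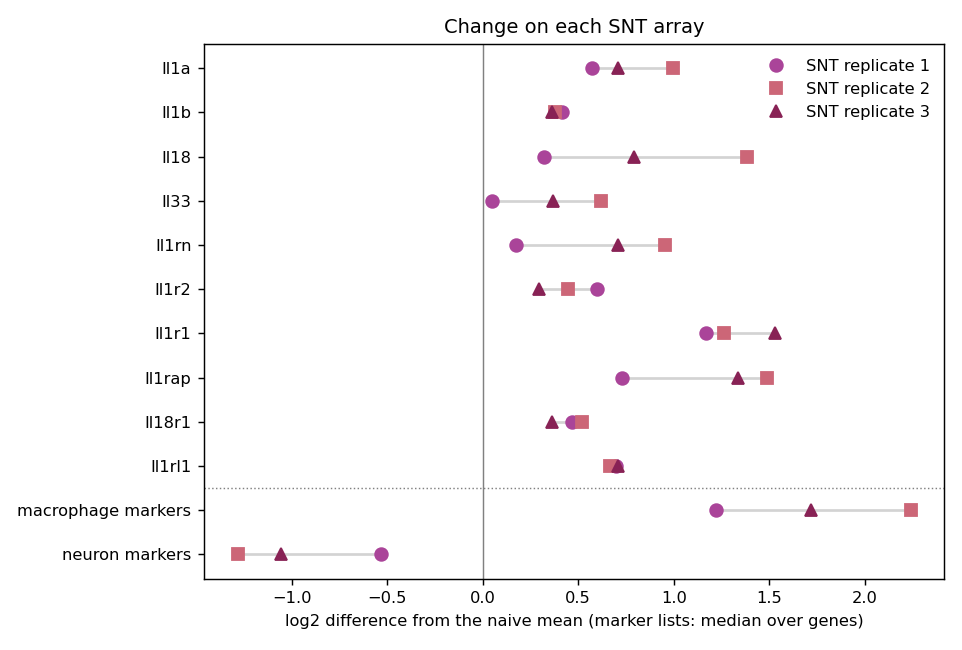
Log2 difference of each SNT array from the naive mean (horizontal axis) for the 10 genes, and the median difference over 13 macrophage and 8 neuronal markers below the dotted line. SNT replicate 1 is the lowest array for Il1a, Il18, Il33, Il1rn, Il1r1 and Il1rap and for the macrophage markers, whereas Il1b, Il1r2, Il18r1 and Il1rl1 vary little or run otherwise.

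Of the genes outside the 10, those whose values over the 6 arrays lay closest to Il1r1 were Rhoq, a small GTPase, Ptpro, a receptor tyrosine phosphatase, and Mmp16, a membrane-bound metalloproteinase. After subtraction of the naive mean of each gene, their root mean square differences from Il1r1 were 0.0394, 0.0657 and 0.0695 log2 units. Rhoq rose by 1.30 ± 0.09, Ptpro by 1.27 ± 0.11 and Mmp16 by 1.42 ± 0.11. Each had its highest SNT value on replicate 3 and its lowest on replicate 1, as in Il1r1. Such likeness in size and order follows from choosing these genes by closeness over the same arrays.

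Other ligands and receptors of the family moved in both directions. Of 9 measured out of 11 listed, the rises numbered 4 and the falls 1 (55.6% called, against 38.2% of all genes), and the median log2 fold change was 0.27. Il18bp, a secreted protein that neutralises IL-18, rose by 0.61 ± 0.10 (limma, adjusted p = 0.00912), and Il18rap, the IL-18 co-receptor, by 0.38 ± 0.10 (limma, adjusted p = 0.0334). Il1rl2, the IL-36 receptor, rose by 0.38 ± 0.11 (limma, adjusted p = 0.0489), and Sigirr, a receptor that restrains the pathway, by 0.30. Il1rapl1, a neuronal relative of Il1rap that organises synapses, fell, with a log2 fold change of -0.53 ± 0.10 (limma, adjusted p = 0.0127). The ligands Il36a, Il1f10 and Il36rn had changes of 0.23, 0.27 and 0.16 and were not called. Only 2 genes of this list rose without naive replicate 1, 1 without naive replicate 3, and 2 under each of the 3 other scalings. Il1rl2 had an adjusted p of 0.157 when naive replicate 1 was omitted and of 0.146 when naive replicate 3 was, and Il18rap lost its call without naive replicate 3 (adjusted p = 0.103) and under the 3 other scalings (adjusted p = 0.106 to 0.127).

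Genes that mature IL-1β and IL-18 rose in 10 of 11 measured out of 16 listed, with a median of 0.52 and none falling, a called share of 90.9% against 38.2% of all genes. P2rx7, the ATP-gated channel that triggers the NLRP3 inflammasome, rose by 1.52 ± 0.22 (limma, adjusted p = 0.0069), and the sensor Nlrp3 by 0.94 ± 0.20 (limma, adjusted p = 0.0177). Casp8, a protease that can also process IL-1β, rose by 0.68 ± 0.14, and Gsdmd, whose product forms the pore through which IL-1β leaves, by 0.52 ± 0.09. The adaptor Pycard rose by 1.03 and caspase-1 itself (Casp1) by 0.72 ± 0.25 (limma, adjusted p = 0.0817), whereas Casp4 had a change of 0.05 and was not called. The number of rises was 6 without naive replicate 1, 2 or 3 or SNT replicate 2, and also 6 under each of the 3 other scalings and at an FDR of 0.05. SNT replicate 1 was the lowest SNT array in 9 of the 11 genes, and 8 had the order of SNT arrays seen in the macrophage markers. The same order was seen in 4 of 8 T and natural killer cell markers. It occurred in 1 of 9 other family genes and in 6 of 23 genes known to be induced by IL-1. How often this order occurred over all genes was not counted, and the part of macrophages in the inflammasome genes was not tested.

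Signal transduction genes rose in 12 of 18 measured out of 27 listed, with a median of 0.48 and none falling, a called share of 66.7% against 38.2% of all genes. SNT replicate 1 was the lowest SNT array in 15 of the 18, and 10 had the order of SNT arrays seen in the macrophage markers. That array was also the SNT array closest to the naive arrays over all clusters. How often it was lowest over all genes was not counted, and the part of macrophages was not tested. The NF-κB subunits Rela and Nfkb2 rose by 0.76 ± 0.11 and 0.75 ± 0.12, and Ikbkb, the kinase that releases NF-κB, by 0.55 ± 0.08. The largest rise was that of Irak3, a kinase-like protein that brakes the receptor complex, at 1.18 ± 0.18 (limma, adjusted p = 0.00796). The adaptor Myd88 rose by 0.93 and Irak4 by 0.68, while Traf6, Tollip and Ube2n had changes of 0.11, -0.15 and 0.23 and were not called.

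Genes known to be induced by IL-1 were split. Of 23 measured out of 25 listed, 10 rose, none fell and 13 were not called, with a median of 0.22. The called share, 43.5%, was close to the 38.2% of all genes called in either direction. All calls in this list were rises, however, and 19.9% of all genes rose. Il6, a cytokine, rose by 2.17 ± 0.19 (4.51-fold, limma, adjusted p = 0.00248), Socs3, a brake on cytokine signalling, by 2.20 ± 0.43 and C3, a complement protein, by 1.32 ± 0.18. The adhesion molecule Icam1 rose by 0.98 ± 0.09, the matrix protease Mmp3 by 0.52 ± 0.09 and the chemokine Ccl2 by 0.49 ± 0.13. The neutrophil chemokines Cxcl1 and Cxcl2 had changes of 0.32 and 0.06, Nos2 of 0.18 and Lcn2 of -0.46, and were not called. Over the 4 lists together 36 of 61 measured genes rose and 1 fell (60.7% called, against 38.2% of all genes). The median was 0.38, and 23 rose and 2 fell without naive replicate 1.

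**Figure D4:**
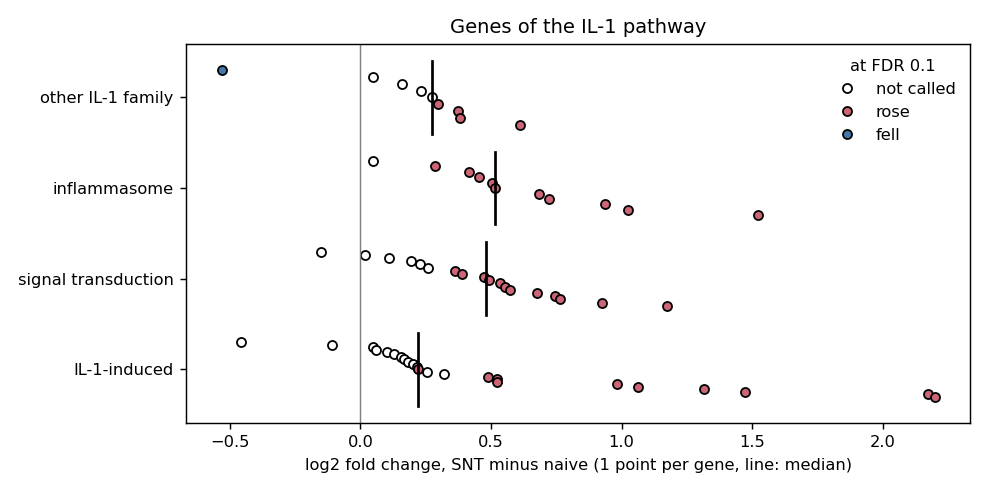
Log2 fold change, SNT minus naive (horizontal axis), of each measured gene of the 4 pathway lists (rows), with 1 point per gene, filled where it passed an FDR of 0.1, and a line at the median of each list. Inflammasome genes are nearly all filled (10 of 11) and IL-1-induced genes reach the highest values (2.20) but are mostly open (13 of 23).

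Several receptor genes lie side by side on chromosome 9 in the order Il1r2, H3f3al3, Il1r1, Il1rl2, Il1rl1, Il18r1 and Il18rap in the RefSeq table, and this stretch was looked at after the values of its genes were known. All 6 measured genes rose, against 19.9% of all genes, while H3f3al3 was not analysed here. Without naive replicate 1 only 4 of the 6 were called (not Il1r2 and Il1rl2), without naive replicate 3 also 4 (not Il1rl2 and Il18rap), and under each of the 3 other scalings 5 (not Il18rap). Their log2 fold changes ran from 0.38 in Il18rap to 1.32 in Il1r1, so neighbours rose by unequal amounts. Among the 4 genes on either side, 5 of 8 were measured: Map4k4, a kinase next to Il1r2, rose by 0.42 ± 0.09 (limma, adjusted p = 0.0217), and Creg2 (-0.21), Slc9a4 (0.05), Slc9a2 (-0.04) and Tmem182 (0.09) were not called. On chromosome 3 the neighbours of Il1a and Il1b were mixed. Of 7 measured genes within 4 on either side, Ckap2l rose by 0.44 and Sirpa, an inhibitory receptor of macrophages, by 0.77, Slc20a1 fell by 0.51 on the log2 scale and 4 were not called.

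**Figure D5:**
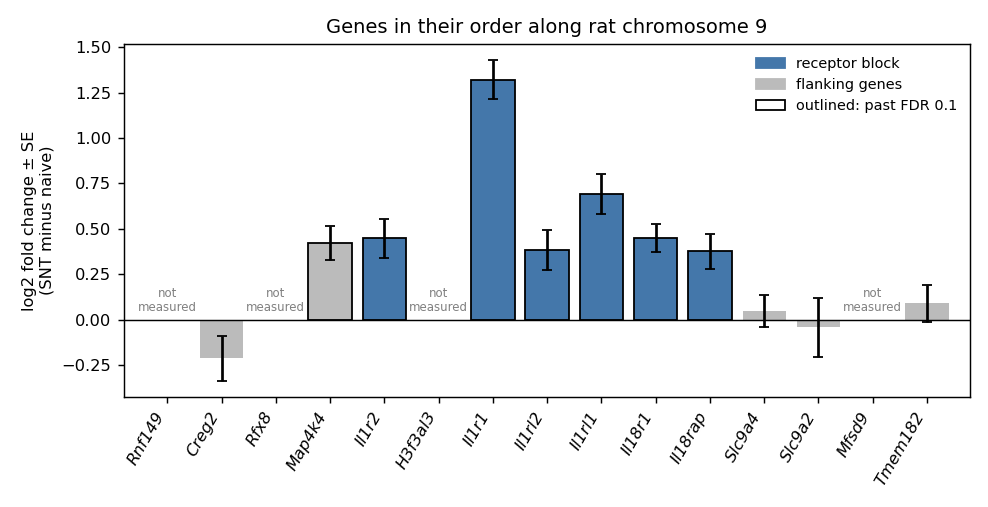
Log2 fold change ± SE (vertical axis) of genes in their order along chromosome 9 (horizontal axis), with the receptor genes in blue, flanking genes in grey and outlines on bars past an FDR of 0.1. All 6 measured receptor genes rise, and of the 5 measured flanking genes only Map4k4 does (19.9% of all genes rose).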

How the data were processed

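Polyadenylated RNA of L5 DRG was hybridised to Affymetrix Rat Exon arrays, 1 array per pool of 4 rats. The deposited values are log2 intensities of transcript clusters. The authors made them from the scanner files with the oligo package by RMA. This method subtracts background, applies quantile normalisation and summarises by median polish. The paper names nonspecific binding and signal saturation as limits of array measurements. Tool versions were not given in these sources. The study used core and extended confidence probesets for its array analysis, but does not say which level the deposited table holds. Scanner files and detection calls were not used here. For arrays there is no read depth, and their number limits the precision.

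Of 19418 clusters, 13327 had 1 gene symbol in the platform annotation, 620 several and 5471 none. Of those with 1 symbol, 13232 matched a gene identifier of the RefSeq table. Where a gene had several clusters, the highest mean over the 6 arrays stood for it, and each of the 10 genes had 1 cluster. SNT was compared with naive with lmFit and eBayes (limma 3.58.1, R 4.3.3) without a replicate block, as a two-sided test whose p-values were adjusted by Benjamini-Hochberg over the whole table, at an FDR of 0.1 and no fold filter. The procedure was also run on simulated data with independent noise and changes planted in few clusters. That run does not measure its error rate on these arrays. Named genes outside the 10 were up to 4 per pathway list with the smallest adjusted p, those called against the list median, and the 3 closest to Il1r1. Others named were chosen after their values were seen. The genes, the lists and the tests were chosen with earlier results of these data known. Promoter coordinates are those of GRCr8, which is not the build of the array design. Alternatives were 3 further scalings, a filter on dim clusters, a stricter FDR, another variance prior, array weights, a replicate block, 1 cluster per gene and leaving out each array.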

Additional observations from a re-analysis of the deposited data

How the results depend on the processing

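Of the 149 values of the 10 genes under 15 alternatives, 129 stayed on the same side of the threshold, 18 lost a call, 2 gained it and 0 turned direction, and 6 genes neither lost nor gained a call. Rises numbered 7 of 10 under quantile normalisation, cyclic loess, median centring and an FDR of 0.05, 8 with a filter on dim clusters, which left out Il1a, 10 with array weights and 6 to 10 when single arrays were left out (6 without naive replicate 1). Array weights gave Il33 an adjusted p of 0.0954. Quantile normalisation, cyclic loess and median centring left 2 rises among the other family genes and 6 among inflammasome genes, as did an FDR of 0.05 for the latter (6), and median centring gave 2 falls among pathway genes. Leaving out single arrays gave 3499 to 7077 called clusters (6232 with all), 23 to 36 rises and 1 to 2 falls among pathway genes, 1 to 4 rises among other family genes and 6 to 9 among inflammasome genes. The lowest number of clusters was that without naive replicate 1, followed by 3745 without naive replicate 2. The cause of these shifts was not tested. Equal replicate numbers did not pair the samples (r = -0.07, -0.15 and 0.05 for deviations of same-numbered arrays). With the replicate number as a block, 4700 clusters were called, 9 of the 10 genes rose and 31 pathway genes rose. Dim clusters such as Il1a and Il18rap may hold nonspecific signal, and exact tests of these 6 arrays have a smallest p of 0.1.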
